A study of Mus musculus with 6 samples.

Results

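The myomiRs, miR-1, miR-133 and miR-206, are microRNAs known for their high abundance in heart and skeletal muscle, and their counts were examined in the nucleus accumbens (NAc), a brain region of reward. All rows of the small RNA count table named miR-1a, miR-1b, miR-133a, miR-133b or miR-206 were taken, which gave 9 of 1364 miRNA rows. The RNA came from NAc of adult male C57BL/6N mice trained in conditioned place preference (CPP) and dissected shortly after the preference test. The saline group received saline injections only, and the morphine group received morphine injections paired with a chamber. The paper describes morphine or saline given intraperitoneally in alternating sessions, and a morphine-paired and a saline-paired chamber. No genetic change is named for either group. Each group had 3 libraries, which the sample records describe as made from 6 mice, while the paper speaks of single mice, so the number of mice pooled in a library is uncertain. The comparison asked whether these miRNAs differed between morphine-conditioned and saline-conditioned mice.

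Mature miRNAs guide Argonaute proteins to target mRNAs, chiefly through the seed, bases 2 to 8 of the miRNA. miR-1 and miR-206 share a seed and repress Hdac4, a brake on muscle differentiation, and miR-133 represses Srf, a transcription factor of muscle genes. miR-1 and miR-133 are made from shared transcripts in heart and skeletal muscle, whereas miR-206 and miR-133b come from a separate locus whose expression is largely restricted to skeletal muscle. In the brain these miRNAs are scarce, and miR-206 is known as a repressor of the neurotrophin gene Bdnf.

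Mature sequences of 3 of the 9 rows were matched in RefSeq (GRCm38.p6), and those of miR-206-3p and miR-133b-3p are shown, because miR-206-3p was the member that met the paper's criteria and miR-133b-3p is its neighbour in the genome. Their mature arms lie at chr1:20679055-20679076 and chr1:20682834-20682855, both on the plus strand. miR-499-5p, a muscle miRNA outside the 3 families, is shown because its pattern across the libraries, though not its level, was like that of miR-1a-3p. It ranked 4 in that likeness, behind miRNAs that are not on the muscle lists. Seeds are in capitals, 5′ to 3′.
miR-206-3p: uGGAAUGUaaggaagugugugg
miR-133b-3p: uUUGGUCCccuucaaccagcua
miR-499-5p: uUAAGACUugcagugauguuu
The hairpin from which miR-206-3p is cut lies at chr1:20679010-20679082 on the plus strand, and the 22 bases of the counted 3p arm are in capitals.
Mir206 hairpin: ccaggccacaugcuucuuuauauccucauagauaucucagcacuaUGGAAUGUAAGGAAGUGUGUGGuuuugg

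The best ungapped match of miR-206-3p in the Mir1a-1 hairpin had 18 of 22 bases identical, including all 7 bases of the seed. miR-133b-3p matched the Mir133a-2 hairpin at 21 of 22 bases, again with all 7 seed bases. A read of miR-133b-3p can therefore differ from one of its paralogue by a single base, and how the authors' counting divided such reads is not given in the sources used here. Mir206 and Mir133b (1:20682769-20682887) both overlap an exon of the lincRNA gene Gm28653 on the plus strand of chromosome 1 and are separated by 3686 bases. Mir1a-1 (2:180389048-180389124) and Mir133a-2 (2:180398379-180398482) lie 9254 bases apart on the plus strand of chromosome 2, and the GENCODE vM21 annotation of GRCm38 places no other gene over either hairpin.

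Further copies, Mir1a-2 and Mir133a-1, lie on chromosome 18 in an intron of Mib1, on the strand opposite to it, and in an intron of the antisense gene Mir133a-1hg. Mir1b lies on the other strand of the Mir1a-2 locus, and all 72 bases of Mir1a-2 are within it. Mature miR-1a-3p and miR-133a-3p can come from either of 2 chromosomes, so their counts cannot be assigned to a locus.

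Library totals ranged from 4183333 to 9842050 counts, and levels are given as CPM (the count divided by the library's total in units of 1e+06) after TMM scaling, which adjusts totals for composition. At 3 counts the smallest level that could be shown was 0.315 to 0.549 CPM, and these limits, like the intervals below, cover counting error only, since no molecular identifiers are described and PCR copies of a read are not independent. Saline replicate 2 stood apart from the other saline libraries, with a TMM factor of 0.800 against 1.31 and 1.32 (0.842 to 0.936 in the morphine group), and the tests were also run without it. Neuronal content was checked on 6 neuronal miRNAs, among them miR-124-3p and miR-9-5p, a check that cannot tell the NAc from other brain regions. All 6 neuronal miRNAs were detected, at a summed level of 127902 to 276072 CPM across the 6 libraries. The highest sum was in saline replicate 2, against 142861 and 127902 CPM in saline replicates 1 and 3. The morphine libraries were at 178275 to 206774 CPM. Of the 6 miRNAs, 1 was called between the groups by the criteria given below, against 19.4% of all rows. It was miR-124-3p, which was lower in the morphine group at -1.88 with edgeR (SE of 0.46 and adjusted p of 0.0195).

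The muscle miRNAs covered a wide range of levels, and 4 of the 9 rows had at least 10 counts in every library. miR-1a-3p was the most abundant member, ranking between 93 and 255 of 1364 rows by count. miR-133a-3p ranked between 324 and 365 and miR-206-3p between 212 and 446, while the other 5 rows apart from miR-1b-5p had at most 11 counts in any library. The order of miR-133a-3p and miR-206-3p was not the same in all libraries. miR-206-3p was higher than miR-133a-3p in the 3 saline libraries and lower in the 3 morphine libraries, although in saline replicate 3 they were only 134 against 131 counts.

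**Figure D1:**
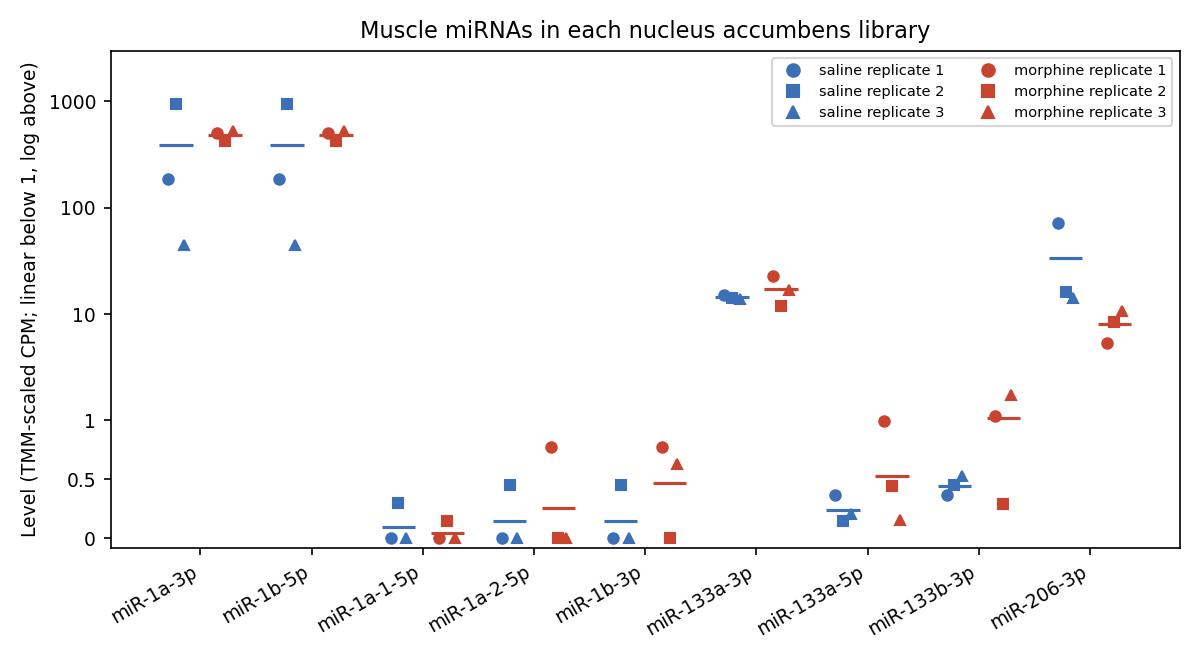
TMM-scaled CPM of the 9 muscle miRNA rows (vertical axis linear below 1 and logarithmic above), with a point per library and a bar at the mean of each group. miR-206-3p is the member whose saline points (blue) all lie above its morphine points (red); miR-1a-3p and miR-1b-5p spread from 44.6 to 940 CPM within the saline group.

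The paper called miRNAs by size and p together (|log2 fold change| no smaller than 0.58, unadjusted p no larger than 0.05), and by these criteria 1 of the 9 rows was called with edgeR's quasi-likelihood test, against a background of 19.4% of all 1364 rows. The called row, miR-206-3p, was lower in the morphine group, and 9.68% of all rows were called in that direction. Among these 9 rows edgeR gave 0 adjusted p values under 0.05, against 5.21% of all rows, and 1 had an unadjusted p under 0.05 with edgeR. DESeq2 gave an adjusted p for 7 of the 9 rows, of which 1 was under 0.05, against 18.2% of the 858 rows with one. The normalized values of 1 of the 9 did not overlap between groups, against 22.1% of all rows. The median log2 fold change was 0.32 over the 9 rows and -0.15 over all rows. The median of the 9 rows is the value of miR-1a-3p itself, which miR-1b-5p nearly repeats. Every row above it is among the 5 with at most 11 counts in any library.

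miR-206-3p, the member most restricted to skeletal muscle, had 391, 108 and 134 counts in saline replicates 1, 2 and 3 and 48, 57 and 68 in morphine replicates 1, 2 and 3. After TMM scaling these were 71.6, 16.2 and 14.1 CPM against 5.31, 8.35 and 10.7 CPM. Every saline library was above every morphine library, and saline replicate 1 was far above the other saline libraries. The mean in saline was 33.9 ± 32.6 CPM and in morphine 8.11 ± 2.69 CPM (SD, n = 3 each), a 4.18-fold lower mean. Its log2 fold change was -2.06 with edgeR (SE of 0.65 and adjusted p of 0.0567), so the row met the paper's criteria but not the adjusted threshold.

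The size of this difference rested on saline replicate 1. Without it the log2 fold change of miR-206-3p was -0.80 with edgeR (SE of 0.65 and adjusted p of 0.638) and the criteria were not met. They were also not met without morphine replicate 1, at -1.76 with edgeR (SE of 0.85 and adjusted p of 0.417). Leaving out saline replicate 2 gave -2.40 with edgeR (SE of 0.38 and adjusted p of 4.43e-09), in a fit in which 29.1% of all rows tested had an adjusted p under 0.05. In a fit blocked on replicate number it was -1.63 with edgeR (SE of 0.78 and adjusted p of 0.380). Over the 12 alternatives the sign stayed negative, the log2 fold change ran from -2.52 to -0.80 and the adjusted p from 4.43e-09 to 0.638.

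Counting error at the nearest libraries was of the same order as the gap between the groups. Scaled by library totals, miR-206-3p was at 13.0 CPM in saline replicate 2 (95% Wilson interval 10.7 to 15.6) and at 8.99 CPM in morphine replicate 3 (7.09 to 11.4). These 2 intervals overlapped. By contrast, saline replicate 1 was at 93.5 CPM (84.6 to 103), clear of all other libraries.

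**Figure D2:**
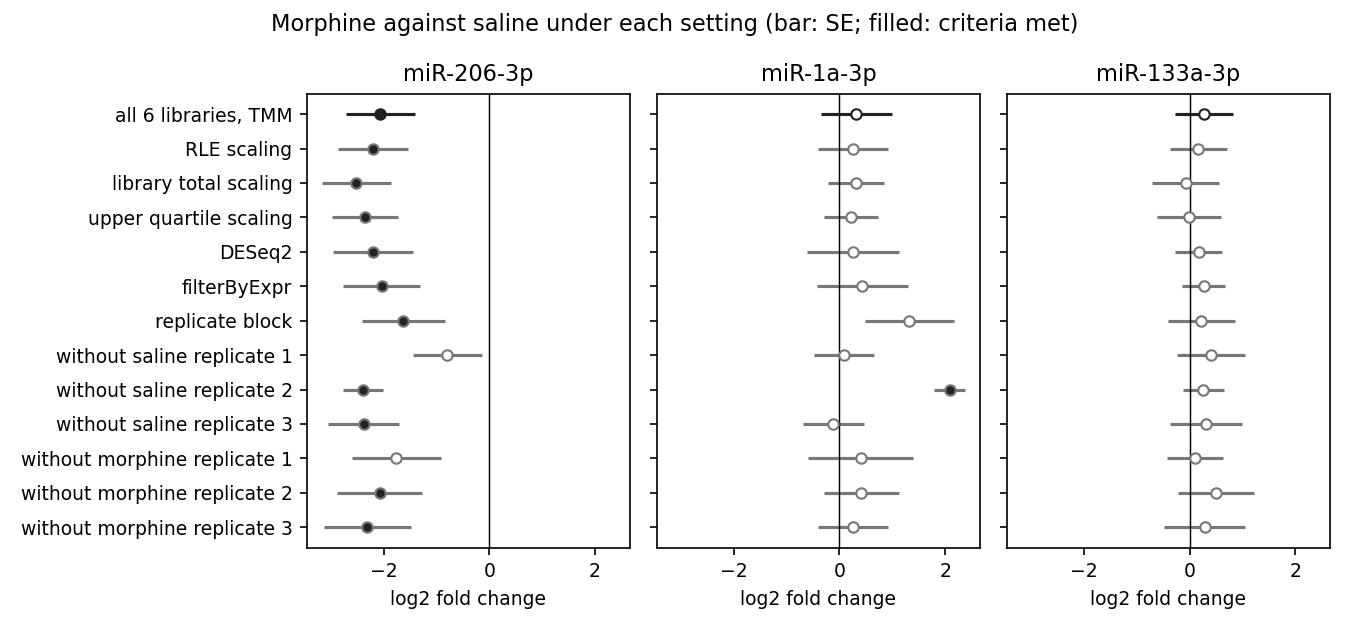
Fitted log2 fold change of morphine against saline (horizontal axis, bars show the SE) for miR-206-3p, miR-1a-3p and miR-133a-3p under the main fit and 12 alternatives; filled points met the paper's criteria. miR-206-3p stays below 0 in all of them and shrinks to -0.80 without saline replicate 1, while miR-1a-3p moves to 2.09 without saline replicate 2.

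miR-1a-3p, the main muscle miRNA of the miR-1 family, had 1010, 6268 and 425 counts in saline replicates 1, 2 and 3 and 4593, 2894 and 3349 in morphine replicates 1, 2 and 3. This gave 185, 940 and 44.6 CPM in the saline group and 508, 424 and 526 CPM in the morphine group. The morphine libraries were close together and lay inside the range of the saline libraries, whose highest value was that of saline replicate 2. The means were 389.8 ± 482 CPM and 486.01 ± 54.4 CPM (SD, n = 3 each), and the log2 fold change was 0.32 with edgeR (SE of 0.67 and adjusted p of 0.799), within the spread between replicates.

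This result for miR-1a-3p depended on which saline library was left out. Without saline replicate 2 every morphine library was above both saline libraries and the log2 fold change was 2.09 with edgeR (SE of 0.29 and adjusted p of 1.09e-11). In that fit 29.1% of all rows tested had an adjusted p under 0.05. Leaving out saline replicate 3 gave -0.11 with edgeR (SE of 0.58 and adjusted p of 0.927). Over the 12 alternatives the adjusted p ran from 1.09e-11 to 0.948, and the criteria were met in 1 of them.

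The counts of miR-1b-5p repeated those of miR-1a-3p. For saline replicates 1, 2 and 3 the miR-1b-5p counts were 1009, 6264 and 425, and for morphine replicates 1, 2 and 3 they were 4587, 2892 and 3345. In each library this was between 99.9% and 100% of the miR-1a-3p count, with at most 6 counts of difference. Mir1b and Mir1a-2 are annotated on opposite strands of a single locus, and whether the authors' counting used the strand is not given in the sources used here, so the pair was read as a single measurement. Its fitted values were nearly the same, with a log2 fold change of 0.32 (SE 0.67). Other rows also shared fitted values, such as miR-122-5p and miR-122b-3p, both at -2.15 with edgeR (SE of 0.69). The shares given over all rows count such rows separately. Whether they hold the same reads was not tested.

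The remaining miR-1 arms were near the limit of detection. miR-1a-1-5p had 0, 2 and 0 counts in saline replicates 1, 2 and 3 and 0, 1 and 0 in morphine replicates 1, 2 and 3. miR-1a-2-5p had 0, 3 and 0 against 7, 0 and 0 counts, and miR-1b-3p had 0, 3 and 0 against 7, 0 and 4. In 5 of the 6 libraries the counts of miR-1a-2-5p and miR-1b-3p, which lie opposite each other, were equal. With all 6 libraries none of these arms met the criteria. Without saline replicate 2 the saline counts of miR-1b-3p were all 0 and it met them, with an adjusted p of 0.0868 by edgeR, on at most 7 counts in a library. In that fit 37.0% of all rows met the criteria.

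miR-133a-3p, the muscle miRNA that represses Srf, was the steadiest member. It had 83, 94 and 131 counts in saline replicates 1, 2 and 3, or 15.2, 14.1 and 13.7 CPM. In morphine replicates 1, 2 and 3 it had 208, 82 and 108 counts, or 23.0, 12.0 and 17.0 CPM. The groups overlapped, with the highest and the lowest value both in the morphine group. The means were 14.3 ± 0.757 CPM and 17.3 ± 5.51 CPM (SD, n = 3 each). The log2 fold change was 0.27 with edgeR (SE of 0.54 and adjusted p of 0.792), and its sign turned when libraries were scaled by their totals, to -0.075, or by the upper quartile, to -0.013. No alternative met the criteria.

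The 3p arm made up nearly all miR-133a counts. It took 97.6% of them in saline replicate 1 (95% Wilson interval 91.8 to 99.4), 98.9% in saline replicate 2 (94.3 to 99.8) and 98.5% in saline replicate 3 (94.7 to 99.6). In the morphine group the share was 95.9% in replicate 1 (92.3 to 97.8), 96.5% in replicate 2 (90.1 to 98.8) and 99.1% in replicate 3 (95.0 to 99.8). The intervals of all 6 libraries overlapped. miR-133a-5p itself was counted 2, 1 and 2 times in saline and 9, 3 and 1 times in morphine replicates 1, 2 and 3.

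miR-133b-3p, whose hairpin overlaps an exon of Gm28653 as that of miR-206 does, had 2, 3 and 5 counts in saline replicates 1, 2 and 3. In morphine replicates 1, 2 and 3 it had 10, 2 and 11. Its levels were 0.366, 0.450 and 0.524 CPM against 1.11, 0.293 and 1.73 CPM, and the groups overlapped at morphine replicate 2. Its log2 fold change was 1.17 with edgeR (SE of 0.98 and adjusted p of 0.542), within the spread between replicates. miR-206-3p and miR-133b-3p, neighbours on chromosome 1, thus had fitted values of opposite sign, at -2.06 and 1.17. The difference between them was not tested. In saline replicates 1 and 2 and morphine replicate 2, miR-133b-3p was at or under the limit of 3 counts. Saline replicate 1, the highest library for miR-206-3p, held 2 counts of miR-133b-3p.

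Ratios of a pair of miRNAs within a library do not depend on how libraries are scaled. The miR-206-3p count was 38.7%, 1.72% and 31.5% of the miR-1a-3p count in saline replicates 1, 2 and 3, and 1.05%, 1.97% and 2.03% in morphine replicates 1, 2 and 3. Saline replicate 2 was inside the range of the morphine libraries, and the other saline libraries were far above it. The mean log2 ratio was -2.96 ± 2.51 in the saline group and -5.94 ± 0.54 in the morphine group (SD, n = 3 each), a difference of -2.98 (exact two-sided permutation test, p = 0.3, adjusted over 2 ratios 0.6). With 3 libraries against 3 the smallest p of this test is 0.1, so it cannot reach 0.05. When a library was left out the difference ran from -4.43, without saline replicate 2, to -2.19, without saline replicate 1.

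For miR-133a-3p the count was 8.22%, 1.5% and 30.8% of that of miR-1a-3p in saline replicates 1, 2 and 3. It was 4.53%, 2.83% and 3.22% in morphine replicates 1, 2 and 3. The morphine values lay inside the saline range. The difference of the mean log2 ratios was -1.07 (exact two-sided permutation test, p = 0.6, adjusted over 2 ratios 0.6). It ran from -2.20, without saline replicate 2, to -0.023, without saline replicate 3. Ratios with miR-133b-3p or miR-133a-5p were not tested, because both had fewer than 10 counts in some libraries.

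**Figure D3:**
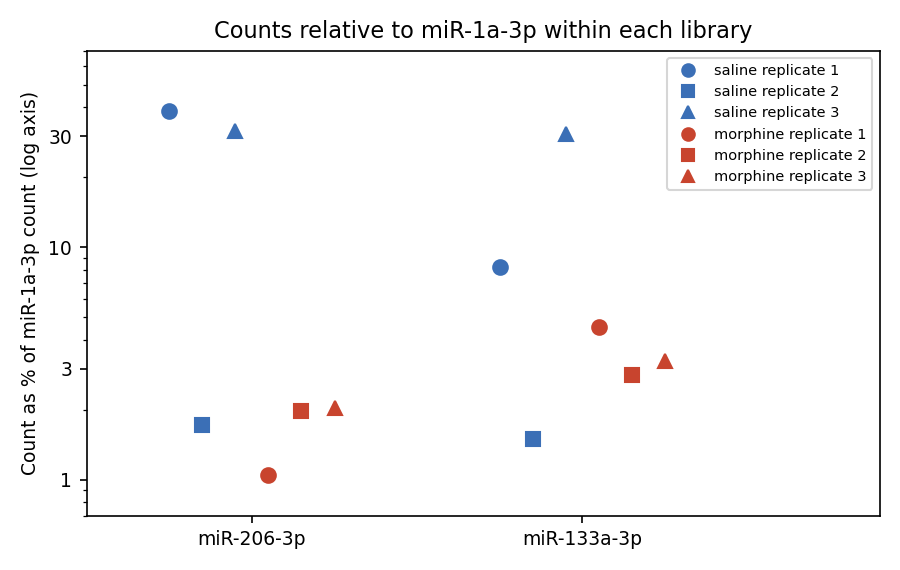
Count of miR-206-3p and of miR-133a-3p as a percentage of the miR-1a-3p count of the same library (logarithmic vertical axis), with a point per library. Saline replicate 2 (blue square), at 1.72% and 1.5%, sits with or below the morphine libraries, whereas saline replicate 3 is at 31.5% and 30.8%.

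Summed over the families, the levels followed their most abundant member. With miR-1b left out, the miR-1 family summed to 184.9, 941 and 44.6 CPM in saline replicates 1, 2 and 3 and to 509, 424 and 526 CPM in morphine replicates 1, 2 and 3. The miR-133 family summed to 15.03 ± 0.781 CPM in the saline group and 18.9 ± 6.18 CPM in the morphine group (SD, n = 3 each). All 9 rows together summed to 829 ± 953 CPM and 999 ± 114 CPM (SD, n = 3 each), so the saline libraries differed among themselves by more than the group means did. The counts shared by miR-1a-3p and miR-1b-5p enter this sum under both names, and with miR-1b left out it was 439 ± 472 CPM and 513 ± 59.5 CPM. The saline mean of all 9 rows was 300.5 CPM without saline replicate 2.

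Of the other muscle miRNAs, 7 rows of miR-208a, miR-208b, miR-499 and miR-486 were tested. By the paper's criteria edgeR called 0 of them, against 19.4% of all rows, with 0 at an unadjusted p under 0.05. DESeq2 called 0, against 17.2% of all rows. The miR-208 rows had at most 3 counts in any library and the miR-486 rows nearly repeated each other, so few separate measurements could have been called. miR-208a-3p and miR-208b-3p, whose hairpins lie in the cardiac myosin heavy chain genes, had at most 1 count in any library. miR-499-5p, from an intron of the myosin gene Myh7b (2:155622880-155622958), had 22, 176 and 30 counts in saline replicates 1, 2 and 3 and 233, 165 and 172 in morphine replicates 1, 2 and 3. That gave 4.03, 26.4 and 3.15 CPM against 25.8, 24.2 and 27.0 CPM. Saline replicate 2 was again level with the morphine libraries. The log2 fold change of miR-499-5p was 1.20 with edgeR (SE of 0.68 and adjusted p of 0.372), and without saline replicate 2 it was 2.85 with edgeR (SE of 0.45 and adjusted p of 4.60e-09). Without that library 29.1% of all rows tested had an adjusted p under 0.05. miR-499-5p also met the paper's criteria in the fit blocked on replicate number, at 1.92 with edgeR (SE of 0.80 and adjusted p of 0.275).

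miR-486, which is made in red blood cells as well as in muscle, took the opposite course in saline replicate 2. miR-486a-5p was at 235, 42.4 and 194 CPM in saline replicates 1, 2 and 3 and at 146, 139 and 125 CPM in morphine replicates 1, 2 and 3. Saline replicate 2 was the lowest of the 6 libraries and the groups overlapped. Its log2 fold change was -0.20 with edgeR (SE of 0.54 and adjusted p of 0.841).

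Each of the 4 rows with at least 10 counts in every library was set against 450 other miRBase miRNAs with as many counts, by the root mean square difference of log2(CPM + 1) centred over the 6 libraries. The closest to miR-206-3p were miR-128-2-5p (0.56), miR-3072-3p (0.63) and miR-99b-5p (0.63). miR-128-2-5p was at 97.2, 13.2 and 45.2 CPM in saline replicates 1, 2 and 3 and at 7.08, 12.3 and 14.8 CPM in morphine replicates 1, 2 and 3, so its groups overlapped at saline replicate 2. For miR-1a-3p, and likewise for miR-1b-5p, the closest were let-7a-1-3p (0.50), miR-20a-5p (0.56) and miR-29a-5p (0.58), with miR-499-5p next (0.60). let-7a-1-3p was at 8.60, 37.0 and 4.61 CPM against 27.0, 23.2 and 27.2 CPM. The closest to miR-133a-3p was miR-124-5p (0.14), followed by miR-151-5p (0.15) and miR-124b-3p (0.16). These likenesses rest on 6 libraries and are descriptions without a test.

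**Figure D4:**
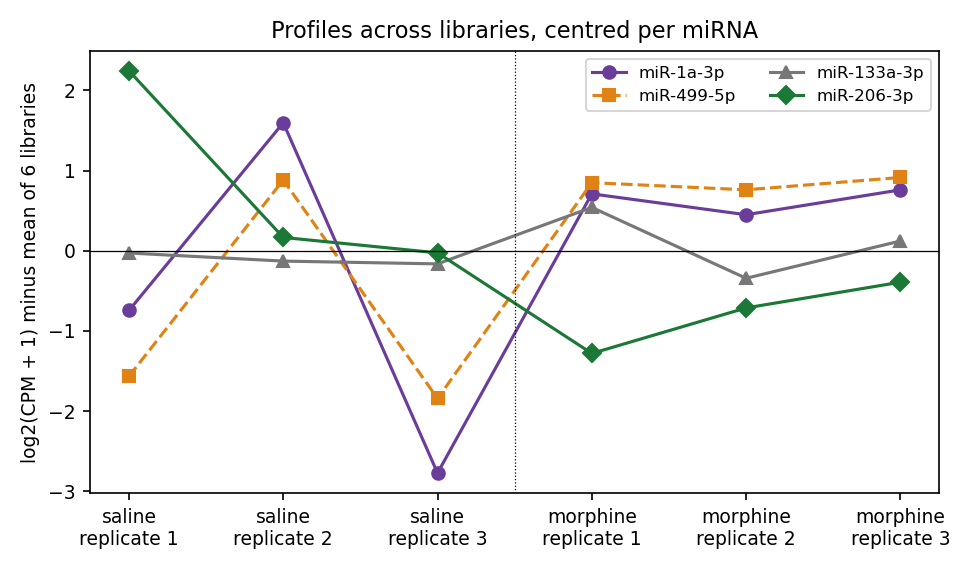
log2(CPM + 1) of miR-1a-3p, miR-499-5p, miR-133a-3p and miR-206-3p in each library, minus the mean of the 6 libraries; lines only join the points of a miRNA, and the dotted line divides the groups. miR-1a-3p and miR-499-5p are low in saline replicates 1 and 3 and high in the other 4 libraries, whereas miR-206-3p is highest in saline replicate 1 and lowest in morphine replicate 1.

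Markers of other cell types that an NAc dissection can hold were summed in the same libraries. The 2 mural and smooth muscle miRNAs, miR-143-3p and miR-145a-5p, were at 7134 to 18936 CPM in the saline group and 5709 to 13728 CPM in the morphine group, with none called. The 2 endothelial forms of miR-126a were at 1485 to 5002 CPM against 10984 to 16264 CPM, and the forms moved apart: miR-126a-3p was called higher at 2.42, whereas miR-126a-5p, not called, was at -0.96. The 4 erythroid miRNAs tested summed to 216 to 312 CPM against 360 to 572 CPM, with miR-451a called higher at 1.57 while miR-144-3p, miR-144-5p and miR-486a-5p, none of them called, were at -1.31, -1.16 and -0.20, for a list median of -0.68. The 5 choroid plexus and ependyma miRNAs summed to 1948 to 2768 CPM against 941 to 994 CPM, with miR-204-5p called lower at -1.50 and a list median of -0.29. The 3 myeloid miRNAs were at 13.2 to 58.2 CPM against 15.1 to 24.3 CPM, with none called. The heart and skeletal muscle list of miR-208a-3p, miR-208b-3p and miR-499-5p was at 3.15 to 26.5 CPM against 24.3 to 27.0 CPM, with the 2 miR-208 forms at or near 0. The endothelial, erythroid and choroid plexus and ependyma sums thus did not overlap between the groups, as was so for 22.1% of all single rows. In none of these non-overlapping lists did all members have fold changes of a single sign. Of the other lists, only the mural and smooth muscle one did, with miR-143-3p at -0.47 and miR-145a-5p at -0.48. The endothelial sum consisted mostly of miR-126a-3p, and the choroid plexus and ependyma sum mostly of miR-204-5p. The part of these cell types in the difference of miR-206-3p was not tested. In bulk tissue, fewer cells of a type and less of a miRNA per cell cannot be told apart.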

How the data were processed

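Small RNA libraries of NAc tissue (3 saline, 3 morphine) were analysed. Per the paper's methods, reads with adapters, with unknown bases or of low quality were dropped, Bowtie was used to discard rRNA, tRNA, other non-coding RNA and repeat reads, and what was left was matched to miRBase; the counting tool, genome build and miRBase release are not given in the sources used here. The deposited counts are the authors' raw numbers of reads for each mature miRNA. The TPM values that the authors deposited beside them were checked to be each count relative to its library's total, and were not tested. All columns were assigned from the sample titles (0 count columns not used).

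Counts of all 1364 miRNAs (1281 with a miRBase name, 83 predicted) that had 1 count or more in some library were scaled by TMM and fitted in edgeR 4.0.16 (R 4.3.3, quasi-likelihood test), using Benjamini-Hochberg adjustment over all rows. The SE is the |log2 fold change| divided by the square root of the F statistic. Ratios used a pseudocount of 0.5 and exact permutation tests (scipy 1.17.1). The fit was tested on simulated data. Alternatives were RLE, library total and upper quartile scaling, DESeq2 1.42.0, filterByExpr, a replicate block and leaving out each library; leaving out miR-1b was added after seeing the data. Every listed member is named, and the likeness list holds the 3 closest miRNAs for each member with at least 10 counts in every library. The members and lists were chosen with earlier results of these data known; miR-499-5p was singled out within its list after its values were seen. Libraries are separate samples by their records. The p-values of edgeR and DESeq2 draw on the spread between libraries, with each row's variance moderated by that of all rows. They therefore do not measure a row's own spread between replicates alone. In the edgeR fit without saline replicate 2, the p of miR-206-3p and miR-1a-3p was close to a normal one for their log2 fold change and SE. A row's own spread thus carried little weight there.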

Additional observations from a re-analysis of the deposited data

How the results depend on the processing

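By the paper's criteria 1 muscle miRNA, miR-206-3p, was called with all libraries, and 0 to 4 when a library was left out. It was 0 without saline replicate 1 or morphine replicate 1, and 4 without saline replicate 2 (miR-1a-3p, miR-1b-3p, miR-1b-5p and miR-206-3p), where miR-1a-3p and miR-1b-5p repeat a single measurement and 37.0% of all rows were called, against 19.4% with all libraries. At an adjusted p under 0.05 the count was 0 with TMM and edgeR, and also 0 with filterByExpr and with the replicate block. The count was 1 with RLE, library total or upper quartile scaling and 1 with DESeq2, and 0 to 3 when a library was left out. Over all miRNAs it was 71 of 1364 with TMM and edgeR, 94, 160 and 153 with those scalings, 156 of the 858 with an adjusted p from DESeq2, and 0 to 386 when a library was left out, highest without saline replicate 2. The median log2 fold change of all miRNAs was -0.15 with TMM, -0.23 with RLE, -0.40 with library totals and -0.35 with upper quartile scaling. Relative to that median, miR-206-3p was at -1.91 with TMM and -2.12 with library totals, and miR-133a-3p at 0.42 and 0.32. Before this adjustment miR-133a-3p reversed to -0.075 with library totals and to -0.013 with the upper quartile. When a library was left out, miR-1a-3p ran from -0.11 to 2.09 and miR-1b-5p from -0.12 to 2.09, both negative without saline replicate 3. The summed level of the morphine group was 513 CPM with miR-1b left out, since its counts repeat those of miR-1a-3p. The cause of the other changes was not tested.

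Replicate numbers are shared by the groups, but same-numbered libraries deviated from their group means with correlations of -0.23, -0.28 and 0.14 over 899 miRNAs, and no library correlated best with its own number in both directions, so the numbers were read as names only. With the replicate block the log2 fold change of miR-206-3p was -1.63, that of miR-1a-3p 1.32 and that of miR-133a-3p 0.23, and 1 of the 9 muscle miRNAs was called, as was miR-499-5p outside them. Across all miRNAs the block moved the calls by the paper's criteria from 264 to 179 and those at an adjusted p under 0.05 from 71 to 32. Counts of 11 or fewer in the 5 scarcest rows limit what the depth could show there.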
